A study of Homo sapiens with 23 samples.

Results

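The shortest listed chromatin loops of T47D cells at T0 were the 574 loops of the T0 list whose bin starts lay less than 20 kb apart. They made up 8.11% of the 7075 loops listed at T0 (95% interval 7.49 to 8.77) and held 25564 of its 127457 contacts. All 574 members were kept and no filter on low values was applied. They were chosen by span alone: 472 spanned 10 kb and 102 spanned 15 kb, and with bins of 5 kb no other span under 20 kb was listed. The T30 list began at 20 kb and held no such loop, so loops under 20 kb could not be compared between the conditions.

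T47D cells are a long-established line from a human breast carcinoma and carry the progesterone receptor (PR). In HiChIP, DNA ends that lie near each other in the nucleus are ligated and pulled down with an antibody, which the labels give as one to PR. The cells had been kept in medium with charcoal-treated serum for 48 h and then without serum for 24 h, per the labels' protocols. Each condition, T0 and T30, was a single library, out of 23 samples in the series. The T30 title reads PR5020, taken here as the receptor and R5020, a synthetic progestin named in the treatment protocol, and neither the unit of its time nor its dose is given for this library. With 1 list per condition no difference had a replicate check and no test was run. Intervals are exact 95% binomial intervals that cover counting error only and treat loops and bins as independent, although loops can share an end. The T30 list held 9591 loops with 135538 contacts. Contacts outside the lists are not known, and so neither is the depth of sequencing. Under the same q-value limit of 0.05, the largest listed p-value was 0.000233 at T0 and 2.84e-05 at T30, so the 2 lists did not end at the same p-value. The lists hold no expression values, so the labelled cell type could not be checked against marker expression.

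The progesterone receptor is a nuclear receptor that binds DNA when it holds its hormone and that acts largely through enhancers, which can lie far from the gene they regulate. A chromatin loop brings such an element close to a gene start. Contacts between sites a few kilobases apart are frequent along any chromosome because the DNA between them is short, so a loop caller asks whether a pair of bins touches more often than other pairs at its distance. A contact is here 1 sequenced ligation between 2 bins of 5 kb.

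Promoter sequences are shown for 3 short loops whose ends held the starts of 2 different genes, and for TXNIP, the only progestin target of the fixed list at a short loop. The sequences are RefSeq windows of GRCh38.p14, from 250 bases before a start to 50 after it, written 5′ to 3′ on the gene's strand. Capitals mark matches to the motifs searched on both strands, and lower case has no match. The first pair lay at the short loop between chr3:184300001-184305000 and chr3:184310001-184315000. PSMD2 encodes a subunit of the proteasome's regulatory particle, and its window at chr3:184300331-184300630 on the plus strand belongs to a second start inside the gene. It held 1 receptor half-site (AGAACA) and 1 AP-1 motif (TGANTCA). EIF4G1 encodes a scaffold protein of translation initiation, and its window at chr3:184314356-184314655 on the plus strand held 3 GC boxes (GGGCGG).
PSMD2: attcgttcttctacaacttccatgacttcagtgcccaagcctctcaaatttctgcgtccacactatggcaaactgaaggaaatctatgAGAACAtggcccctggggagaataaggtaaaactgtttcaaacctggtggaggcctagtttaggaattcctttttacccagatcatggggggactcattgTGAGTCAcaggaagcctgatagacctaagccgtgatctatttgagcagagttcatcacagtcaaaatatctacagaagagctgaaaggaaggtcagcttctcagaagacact
EIF4G1: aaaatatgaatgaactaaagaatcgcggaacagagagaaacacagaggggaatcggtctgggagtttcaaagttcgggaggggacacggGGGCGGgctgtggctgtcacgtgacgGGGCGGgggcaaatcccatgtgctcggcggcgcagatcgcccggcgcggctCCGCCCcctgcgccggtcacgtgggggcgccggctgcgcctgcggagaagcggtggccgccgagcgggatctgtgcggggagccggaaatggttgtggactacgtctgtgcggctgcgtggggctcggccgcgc

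The second pair, MED1 and CDK12, lay at the short loop between chr17:39450001-39455000 and chr17:39460001-39465000. MED1 encodes the Mediator subunit that binds nuclear receptors, and its window at chr17:39451214-39451513 on the minus strand held 1 GATA motif (AGATAA). CDK12 encodes a kinase of RNA polymerase II, and its window at chr17:39461236-39461535 on the plus strand held no searched motif.
MED1: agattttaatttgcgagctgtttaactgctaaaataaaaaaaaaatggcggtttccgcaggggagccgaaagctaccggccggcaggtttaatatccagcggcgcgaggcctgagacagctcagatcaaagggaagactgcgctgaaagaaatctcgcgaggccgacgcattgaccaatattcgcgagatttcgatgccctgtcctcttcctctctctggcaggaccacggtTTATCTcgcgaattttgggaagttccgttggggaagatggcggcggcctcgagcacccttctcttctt
CDK12: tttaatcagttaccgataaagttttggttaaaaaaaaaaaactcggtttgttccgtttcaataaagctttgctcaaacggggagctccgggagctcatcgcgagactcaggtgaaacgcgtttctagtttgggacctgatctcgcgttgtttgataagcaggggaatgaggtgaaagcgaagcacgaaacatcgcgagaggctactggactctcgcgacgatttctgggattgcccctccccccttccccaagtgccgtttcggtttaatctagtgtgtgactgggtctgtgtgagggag

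The third pair, CDKN2A and CDKN2B, lay at the short loop between chr9:21995001-22000000 and chr9:22005001-22010000. Both genes encode inhibitors of the kinases that drive cells out of the G1 phase. The CDKN2A window at chr9:21995275-21995574 on the minus strand belongs to the outermost start of the gene. Which CDKN2A product begins at that start was not examined, so the window need not be the promoter of the kinase inhibitor. It held no searched motif, and the CDKN2B window at chr9:22009256-22009555 on the minus strand held 2 GC boxes.
CDKN2A: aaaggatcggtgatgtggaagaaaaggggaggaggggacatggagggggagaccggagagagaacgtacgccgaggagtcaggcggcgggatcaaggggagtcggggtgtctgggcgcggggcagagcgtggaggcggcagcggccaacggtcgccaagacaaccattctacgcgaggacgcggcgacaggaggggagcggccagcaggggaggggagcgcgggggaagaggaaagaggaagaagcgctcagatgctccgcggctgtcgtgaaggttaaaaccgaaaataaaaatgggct
CDKN2B: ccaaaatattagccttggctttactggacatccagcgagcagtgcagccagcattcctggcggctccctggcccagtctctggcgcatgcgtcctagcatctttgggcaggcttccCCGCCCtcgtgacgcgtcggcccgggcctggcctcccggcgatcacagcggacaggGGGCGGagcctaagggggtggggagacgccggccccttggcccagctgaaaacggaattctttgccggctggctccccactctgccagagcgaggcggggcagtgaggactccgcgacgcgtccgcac

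TXNIP encodes a protein that binds thioredoxin and limits glucose uptake. Its outer start, at the window chr1:145996530-145996829 on the minus strand, lay in the short loop's bin chr1:145995001-146000000 and held 1 forkhead motif (TGTTTAC).
TXNIP: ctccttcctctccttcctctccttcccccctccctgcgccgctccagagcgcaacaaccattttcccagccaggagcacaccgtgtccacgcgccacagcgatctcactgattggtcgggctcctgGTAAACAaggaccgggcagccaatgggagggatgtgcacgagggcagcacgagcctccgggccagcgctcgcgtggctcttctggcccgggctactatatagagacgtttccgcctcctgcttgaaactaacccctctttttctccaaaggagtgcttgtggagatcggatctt

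Across all members, 416 distinct promoter windows lay at short-loop bins, of 22055 windows in the table. They were rich in G and C, with a median of 66% against 62.3% for all windows, and held a median of 27 CpG pairs against 21. Windows at longer T0 loops and at T30 loops were alike in this, with medians of 64.7% and 67% and of 26 CpG pairs in both. A GC box, the motif bound by SP-family factors, was present in 67.3% of the short-loop windows and in 56.3% of all windows. The T0 loops of 20 kb or more had GC boxes in 66.6% of 1543 windows, so the short-loop share (62.6 to 71.8) was not told apart from theirs. The receptor half-site AGAACA was present in 8.17% of short-loop windows (5.73 to 11.2) and in 11.8% of all windows, but in 8.94% at longer T0 loops and 8.27% at T30 loops. The full palindromic progesterone receptor element, which contains the half-site, was present in none of the 416 and in none of the 22055 windows. The AP-1 motif was found in 8 of 416 windows (1.92%, 0.834 to 3.75) against 6.15% of all windows. At longer T0 loops it was in 3.82% (2.92 to 4.905), an interval that overlapped that of the short-loop windows. At T30 loops it was in 5.01% (4.10 to 6.06), which did not overlap it. GATA motifs were found in 3.61% (2.03 to 5.88) against 7.93% of all windows, 4.80% at longer T0 loops and 4.76% at T30 loops, and forkhead motifs in 2.40% against 2.85%. The palindromic estrogen receptor element was in none of the short-loop windows and in 8 of all windows. A match is a run of letters and not a measured binding site.

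Short loops were unevenly spread over the chromosomes. Chromosome 17 held 115 of the 574 (20.0%, 16.8 to 23.6), although it held 9.09% of the T0 loops of 20 kb or more (8.40 to 9.82). Chromosome 16 held 70 short loops, chromosome 12 held 60, chromosome 19 held 46 and chromosome 20 held 38. These 5 chromosomes together held 57.3% of the short loops (53.2 to 61.4), 27.5% of the longer T0 loops and 25.03% of the placed protein-coding genes. Chromosome 3 stood at the other side: it held 855 longer T0 loops, 13.2% of them, but 14 short loops, 2.44% of the short ones (1.34 to 4.06). Only chromosome Y had no short loop, and it had no loop of any span in either list.

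**Figure D1:**
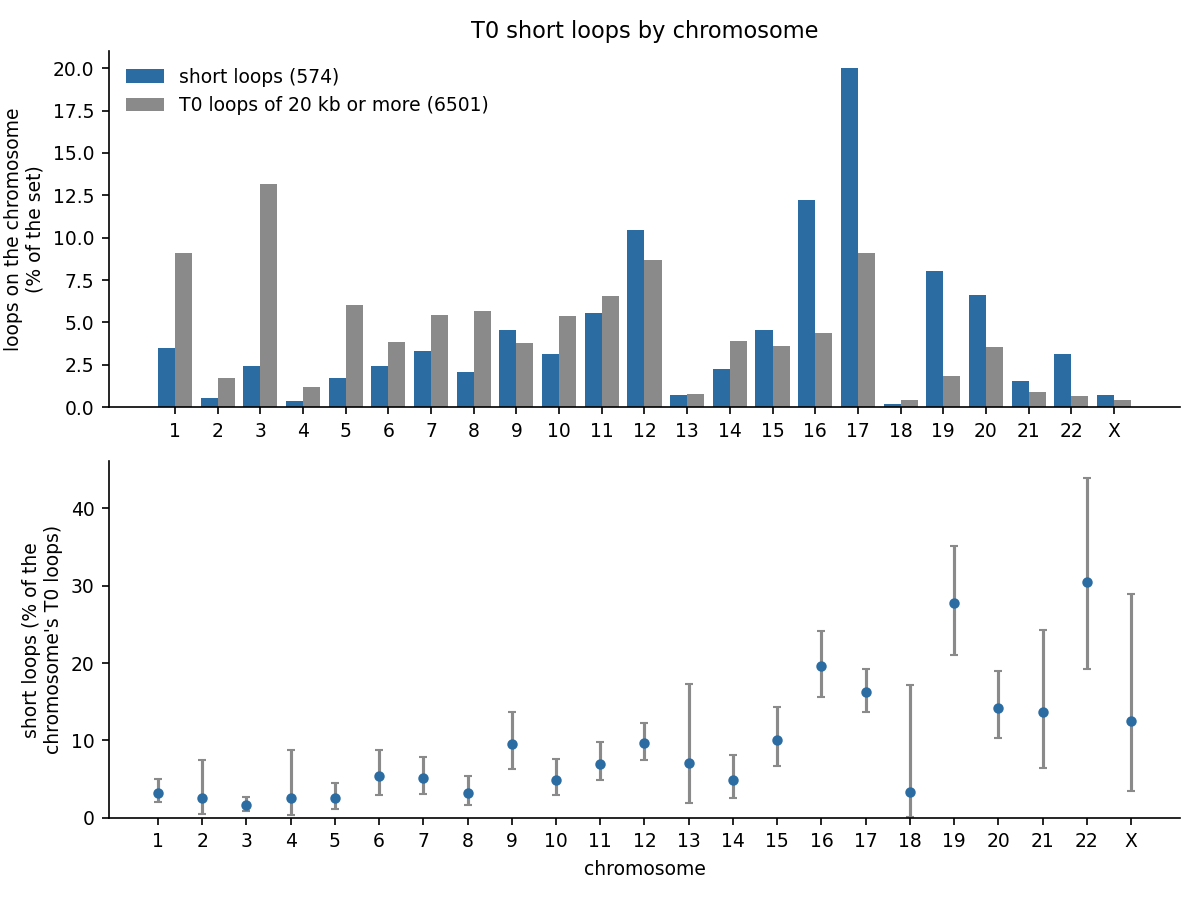
Upper bars give the share of the 574 short T0 loops (blue) and of the 6501 T0 loops of 20 kb or more (grey) on each chromosome, in percent of the set; the lower plot gives short loops in percent of each chromosome's own T0 loops, with exact 95% intervals. Chromosomes 16, 17, 19 and 20 hold larger shares of the short than of the longer loops, and chromosome 3 a smaller one.

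Counted within each chromosome's own T0 loops, the order was different. Short loops were 30.5% of the T0 loops of chromosome 22 (19.2 to 43.9) and 27.7% of those of chromosome 19 (21.1 to 35.2). They were 19.7% on chromosome 16 and 16.3% on chromosome 17, and these 4 intervals overlapped in part. On chromosome 3 the share was 1.61% (0.884 to 2.69) and on chromosome 2 it was 2.61% (0.541 to 7.44). Per 100 protein-coding genes, chromosome 17 had 9.94 short loops, chromosome 16 had 8.28 and chromosome 20 had 7.08, whereas chromosome 19, with 1410 genes, had 3.26.

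Within chromosomes the short loops were spread over many windows, with more in some. Of the windows of 5 Mb, 161 held a short loop and 457 held a longer T0 loop. A single short loop was in 66 of the 161. The fullest window, the last stretch of the long arm of chromosome 16 from 85 to 90 Mb, held 26 short loops beside 107 longer T0 loops. On chromosome 17 the windows from 75 to 80 Mb, from 40 to 45 Mb and from 80 to 85 Mb held 20, 19 and 17 short loops. The first 5 Mb of chromosome 16 held 19 short loops beside 24 longer ones. The 10 fullest windows held 165 short loops (28.7%).

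Contacts of the short loops ran from 17 to 127 with a median of 43 (interval of the median 42 to 44). The T0 loops of 20 kb or more had a median of 14. At 10 kb the median was 44 and the range 17 to 127, and at 15 kb the median was 38 and the range 19 to 92. Just past the 20 kb limit, the 51 loops of 20 kb had a median of 34 contacts (17 to 48) and the 48 loops of 25 kb a median of 29 (18 to 63). The fall with span was therefore gradual across the limit and the ranges overlapped. Spearman's rank correlation of contacts with span was -0.22 over the 574 short loops, which take only 2 spans, and -0.75 over all 7075 T0 loops; all these loops share 1 library.

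**Figure D2:**
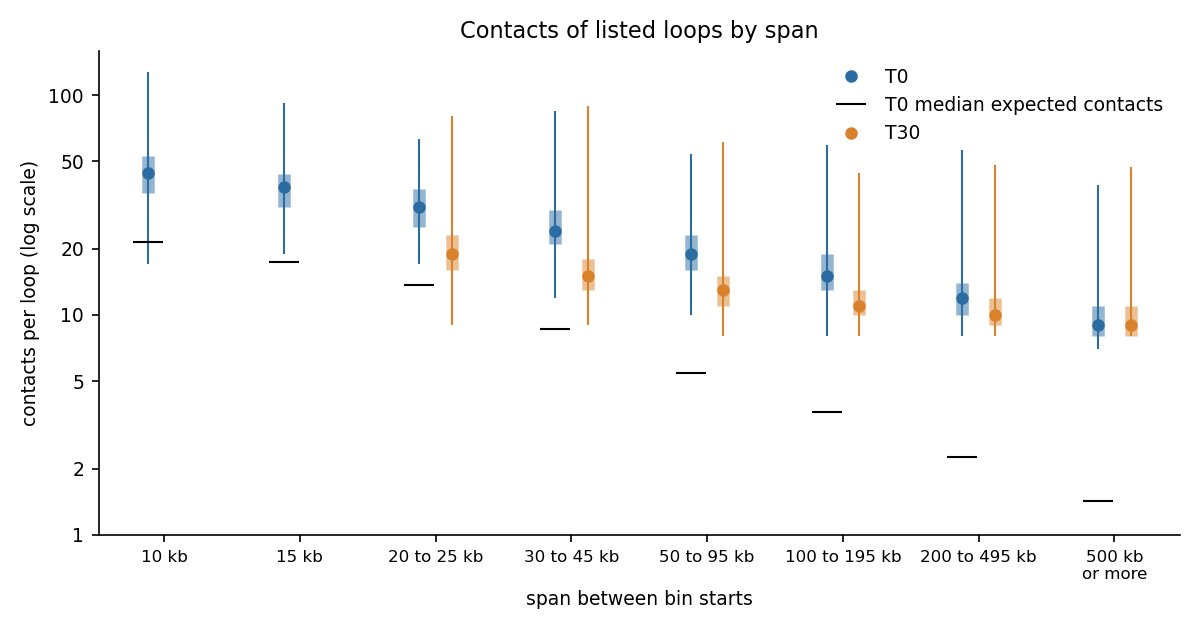
Contacts per listed loop by span class on a log scale for T0 and T30: points are medians, thick bars the middle quartiles, thin lines the full range, and black dashes the median expected contacts at T0. The T0 medians run from 44 at 10 kb to 9 at 500 kb or more, and T30 has no point below 20 kb.

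The high counts went with high expected counts. Expected contacts were worked back from the deposited p-value as a Poisson mean, on the assumption that the p-value is the upper Poisson tail at the loop's count. Their median was 21.5 at 10 kb and 17.4 at 15 kb, against 2.79 for longer T0 loops. The ratio of observed to expected contacts was low at short loops, with a median of 2.07 (range 1.51 to 3.44). At the longer T0 loops its median was 4.82. Only loops that passed the q-value limit are listed, and with fewer expected contacts a higher ratio is needed to pass it. The lowest listed T0 ratio was 1.51 at 10 kb and 4.32 at 500 kb or more. The part of this limit in the difference was not tested, so the medians do not rank short against longer loops. The rank correlation of contacts with expected contacts was 0.95 over the short loops; the expected values are computed from the contacts and the p-value, so the 2 are not independent measures. Of the short loops 49.8% had a q-value under 0.01, against 61.5% of the longer T0 loops.

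The loops with the most contacts lay almost all on the far end of chromosome 3. Of the 10 short loops with the most contacts, 9 were on chromosome 3, and 2 loops on chromosome 16 tied for the last place. All 12 short loops of chromosome 3 beyond 180 Mb had 76 to 127 contacts, and its other 2 short loops had 32 and 33. Expected contacts moved with them: 46.9 to 73.0 beyond 180 Mb and 15.3 to 16.3 before it. What part the coverage of this stretch had in these counts was not tested. Short loops of chromosomes 19 and 22 were at the other side, with medians of 27 and 27.5 contacts and maxima of 36 and 32.

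**Figure D3:**
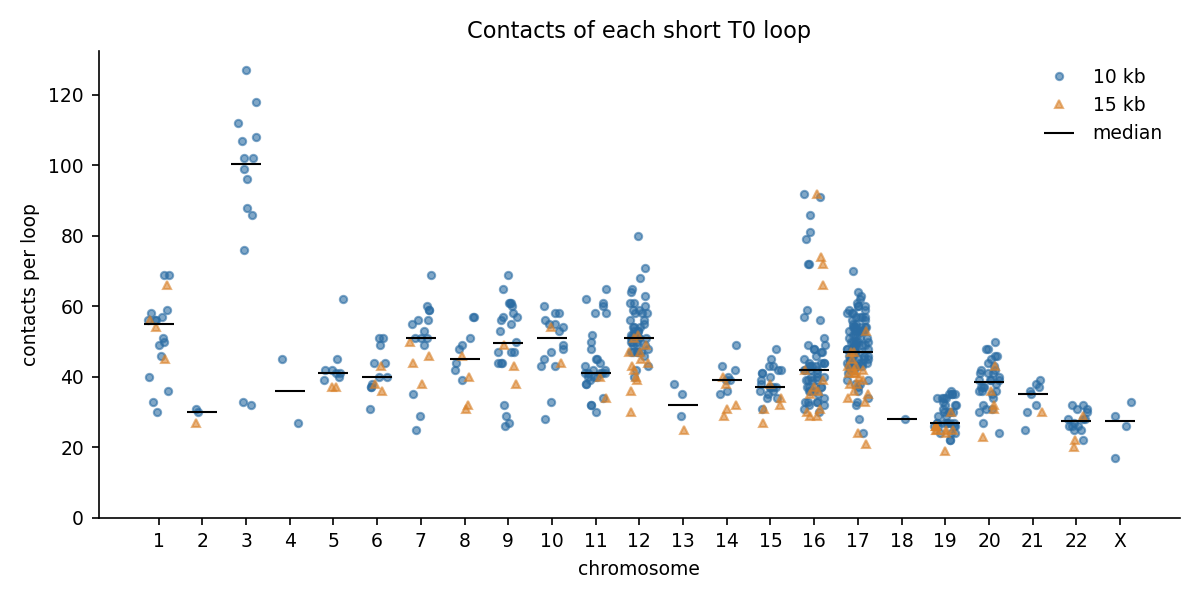
Contacts of each of the 574 short T0 loops by chromosome, 10 kb loops and 15 kb loops in separate marks, with the chromosome median as a black dash. Loops of chromosome 3 reach 127 contacts, whereas no loop of chromosome 19 exceeds 36 and none of chromosome 22 exceeds 32.

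The loop with the most contacts, 127 (expected 73.0, q-value 8.93e-06), joined chr3:196150001-196155000 and chr3:196160001-196165000, and neither end overlapped a protein-coding gene. The loop between the starts of PSMD2 and EIF4G1, shown above, came second with 118 contacts (expected 60.3, q-value 9.02e-08). The third, with 112 contacts, lay between genes at chr3:184715001-184720000 and chr3:184725001-184730000. The fourth had 108 contacts inside SENP2, which encodes a SUMO protease, and the fifth had 107 inside BDH1, a mitochondrial enzyme of ketone metabolism. A loop with 102 contacts joined a start of RUBCN, a regulator of autophagy, to a bin with starts of RUBCN and FYTTD1, the latter an mRNA export factor. Another with 102 contacts spanned EIF2B5, a subunit of the exchange factor for translation factor eIF2, from end to end. Inside TNK2, a non-receptor tyrosine kinase, the loop had 99 contacts, and the loop with an end at VWA5B2 had 96. The tenth spanned 15 kb on chromosome 16. It had 92 contacts, as did a loop of 10 kb inside GSE1 that was placed behind it by its larger q-value, and it joined chr16:85700001-85705000 to a bin in C16orf74 at chr16:85715001-85720000.

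By the authors' q-value the order was another one. The smallest q-value of a short loop, 1.37e-10, belonged to a loop on chromosome 17 with 62 contacts against 19.7 expected, a ratio of 3.15. It joined a bin with the start of DUS1L, a tRNA-modifying enzyme, at chr17:82065001-82070000 to a bin in FASN, which encodes fatty acid synthase, at chr17:82075001-82080000. The highest ratio, 3.44, was that of a loop inside BFSP1 on chromosome 20 with 37 contacts against 10.8 expected. Next, at 3.29, came the loop joining HOOK2 to the bin with the start of JUNB, an AP-1 subunit, on chromosome 19 with 25 contacts against 7.59 expected. These 3 loops were chosen after their values were seen.

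Short loops often lay within single genes. In 267 of the 574 (46.5%, 42.4 to 50.7) both ends lay in 1 protein-coding gene, against 8.97% of T0 loops of 20 kb or more. The latter had a median span of 210 kb, beside a median gene length of 24469 bp, so few of them could fit in a gene. The share among all bin pairs 10 or 15 kb apart was not computed, so whether the short loops exceed it is not known. The share was lower at each longer T0 span class: 47.2% at 10 kb, 43.1% at 15 kb, 37.4% at 20 to 25 kb (27.9 to 47.7, overlapping the short loops' interval) and 22.2% at 30 to 45 kb. The T30 loops of 20 to 25 kb stood at 42.5% (39.8 to 45.1), which overlapped it too. With genes widened by 10 kb on each side, the share was 80.1% for short loops and 13.3% for longer T0 loops. Both ends lay in genes that were never the same in 69 short loops, 1 end lay in a gene in 139, and neither did in 99 (17.2%).

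At 285 short loops (49.7%, 45.5 to 53.8) at least 1 end bin held the start of a protein-coding gene, against 24.9% of longer T0 loops. At 20 to 25 kb the share was 48.5% (38.3 to 58.8), so the short loops could not be told apart from the next span class. The T30 loops of 20 to 25 kb, the shortest in that list, held a start in 22.6% (20.4 to 24.9), and all T30 loops in 22%. The T0 and T30 intervals at 20 to 25 kb did not overlap, but they cover counting error only, and each condition had 1 library. The lists also ended at different p-values, and the part this had in the difference was not tested.

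**Figure D4:**
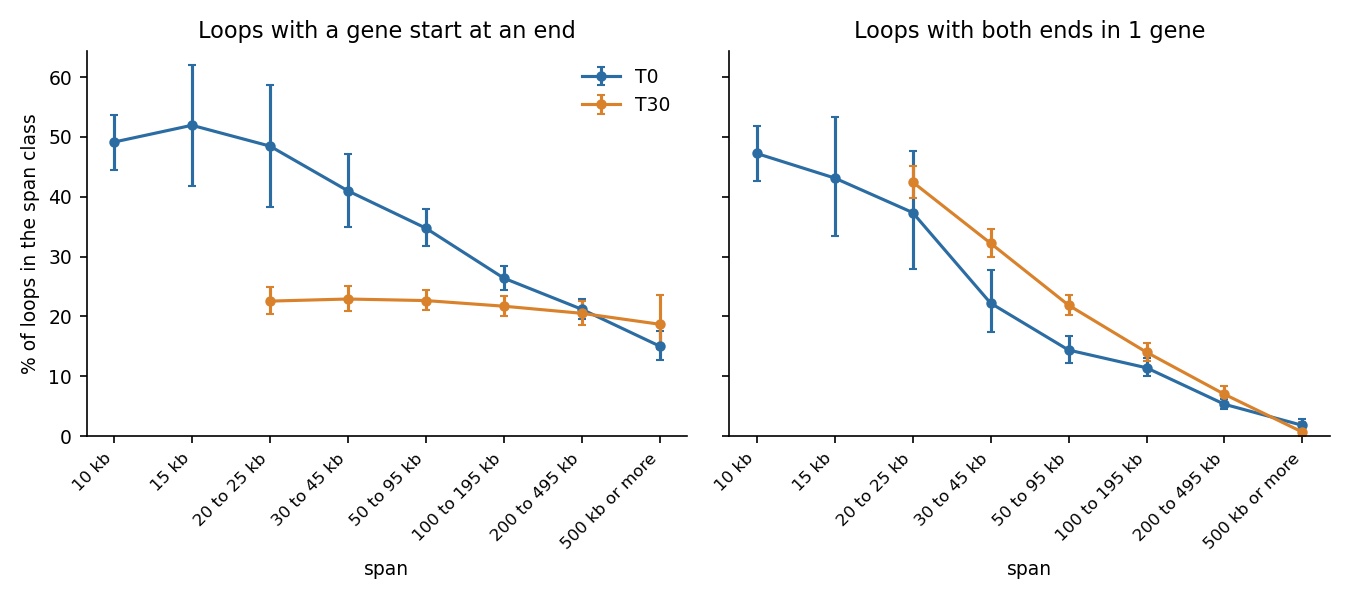
Share of listed loops, in percent of the span class, with both ends in 1 protein-coding gene (one panel) and with a gene start in an end bin (the other panel), for T0 and T30 with exact 95% intervals. Both shares are highest in the T0 short classes, and the T30 share with a gene start is 22.6% at 20 to 25 kb and 18.7% at 500 kb or more.

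The surroundings of the short loops were rich in genes. Their median number of protein-coding gene starts within 250 kb was 9, against 3 for the longer T0 loops, and 61.5% of short loops against 24.4% of longer ones lay where more than 6 starts did so. The T0 loops of 20 to 45 kb were much alike, with a median of 8 and 58.3% in such surroundings. Within these gene-rich surroundings a gene start lay at an end of 61.2% of short loops (55.9 to 66.3) and 43.5% of longer ones (41.0 to 46.0), and at 54.8% of those of 20 to 45 kb (47.8 to 61.6), which overlapped the short loops. In the middle class the shares were 35.7% (28.5 to 43.5) and 25.4% (23.6 to 27.2). In the gene-poor class they were 16.98% (8.07 to 29.8) and 13.1% (11.9 to 14.5), with overlapping intervals. Within each of the 5 chromosomes with most short loops the short share was also above that of the loops of 20 kb or more. On chromosome 16 it was 55.7% (43.3 to 67.6) against 30.1% (24.8 to 35.8), on chromosome 19 it was 71.7% (56.5 to 84.0) against 46.7% (37.5 to 56.0), and on chromosome 17 it was 41.7% (32.6 to 51.3) against 28.3% (24.7 to 32.1). It was 46.7% (33.7 to 60) against 30.2% (26.4 to 34.2) on chromosome 12 and 36.8% against 24.9% on chromosome 20, and on these 2 the intervals overlapped. The loops of 20 to 45 kb had a start in 50% (35.5 to 64.5) on chromosome 12 and 42.9% (24.5 to 62.8) on chromosome 16. On chromosome 17 they had one in 31.3% (20.6 to 43.8), on chromosome 19 in 66.7% (43.0 to 85.4) and on chromosome 20 in 35.3% (14.2 to 61.7). On each of the 5 chromosomes this interval overlapped that of the short loops.

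Where a gene start lay at 1 end only, in 1 direction, the other end lay downstream at 99 loops and upstream at 114. The downstream share was 46.5% (39.6 to 53.4), and a downstream end need not lie in the gene. Longer T0 loops had 55.2% downstream (52.6 to 57.9). At 28 short loops (4.88%, 3.27 to 6.97) the 2 bins held the start and the end of the same gene, against 0.338% of longer T0 loops. The genes concerned were necessarily of about the loop's length. Among them were EIF2B5 with 102 contacts, GINS2, a subunit of the GINS complex of DNA replication, with 91, and BNIPL with 69.

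Gene starts lay at both ends of 36 short loops (6.27%, 4.43 to 8.58), against 1.66% of longer T0 loops. At 30 of them the starts at the 2 ends belonged to different genes throughout (5.23%, 3.55 to 7.38), against 1.63% of longer T0 loops and 5.28% of T0 loops of 20 to 45 kb. The 30 included the pairs of the printed promoters. MED1 and CDK12 were joined by 52 contacts against 25.5 expected, with a q-value of 0.00150. CDKN2A and CDKN2B were joined by 29 contacts against 9.52 expected, a ratio of 3.05 and a q-value of 0.000227, and neither of their bins ended any longer T0 loop or any T30 loop. Other such pairs, chosen after their values were seen, were BECN1 and PSME3 with 43 contacts, NOP56 and IDH3B with 31, and TSEN34 and RPS9 with 30. Their q-values were 0.0482, 0.000649 and 0.0052 in that order. Contacts at the 36 loops had a median of 43.5 (24 to 118), close to the 44 of the 289 short loops with no start at either end.

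A bin of a short loop lay in 665 of 19866 placed protein-coding genes, a background of 3.35%. Most of these genes, 611, had 1 short loop, 49 had 2 and 5 had 3 or more. Overlapping genes inflate the count: 1 loop with 62 contacts in the gamma protocadherin cluster alone touched 22 genes. Of the 665 genes, 299 (44.96%) also had a longer T0 loop and 352 (52.9%) a T30 loop, against backgrounds of 18% and 23.6% of all placed genes. For 244 genes the short loop was the only loop in either list.

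GSE1, a gene on chromosome 16 whose product belongs to histone-modifying corepressor complexes, had the most short loops. Its 8 short loops held 617 contacts, and 74 longer T0 loops and 190 T30 loops also ended in this long gene of 506689 bp. CIZ1, a nuclear protein of DNA replication, had 3 short loops with 159 contacts, 1 longer T0 loop and 1 T30 loop. LLGL2, a cell polarity protein, NPLOC4, a cofactor of the p97 ATPase, and TBCD, a tubulin folding cofactor, had 3 each with 152, 134 and 114 contacts. BDH1, GINS2, EMC8, BNIPL and C1orf56 followed with 2 each. The last 2 had 119 contacts, as did NR4A1, an orphan nuclear receptor. The other loops of these genes varied: GINS2 had 11 longer T0 loops and 16 T30 loops, BDH1 had 8 and 9, TBCD 5 and 11, and EMC8 5 and 8. LLGL2 had 1 and 4, NPLOC4 had 1 and 2, and BNIPL and C1orf56 had 0 and 1.

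GSE1 with 200 kb on each side, chr16:84969512-85876200, held 13 short loops with 48 to 92 contacts, beside 76 longer T0 loops and 209 T30 loops. Here short loops followed one another: the loops from 85675001 to 85685001, from 85685001 to 85700001 and from 85700001 to 85715001 formed a chain that began in the last bin of GSE1, passed GINS2 and ended in C16orf74, with 91, 72 and 92 contacts. Their expected contacts were 47.1, 43.3 and 45.03.

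Such chains were rare. The 574 loops had 1116 distinct end bins, of which 1084 ended 1 short loop, 32 ended 2 and none ended 3. The 5 bins with 2 short loops and most summed contacts were chr16:85540001-85545000 in GSE1 with 166, chr16:85700001-85705000 with 164, chr16:85685001-85690000 at the start of GINS2 with 163, chr1:151045001-151050000 at the start of C1orf56 with 119 and chr12:120300001-120305000 at SIRT4, a mitochondrial sirtuin, with 118. Of the 574 loops 62 overlapped another short loop, and 534 were alone in the cluster into which the authors merged near contacts. None of the 676 bins just inside the ends was itself an end of a short loop. Merging of near contacts can remove loops at neighbouring bins, and its part in these counts was not tested.

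In the fixed gene lists, 0% to 15% of the genes of a list were at a short loop, beside 3.35% of all placed genes. Among 32 progestin targets, TXNIP alone was at a short loop (3.12%, beside the 3.35% background), while 12 had a longer T0 loop and 24 a T30 loop, beside the 18% and 23.6% of all placed genes. The TXNIP loop had 54 contacts against 25.1 expected (q-value 0.000280) and joined chr1:145980001-145985000 to the bin of the promoter printed above. TXNIP had no longer T0 loop and 1 T30 loop. Of 23 estrogen response genes and of 20 basal and mesenchymal genes none was at a short loop.

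Of 22 luminal breast identity genes 2 were. KRT19, a keratin of simple epithelia, had 1 short loop with 48 contacts, 5 longer T0 loops and 5 T30 loops. ERBB3, a receptor of the epidermal growth factor family, had 1 inside the gene with 40 contacts, and was the only member among 20 growth factor and kinase genes. Among 20 cell cycle genes 3 were at a short loop: CDK2, the cyclin-dependent kinase of S phase entry, with 54 contacts, and CDKN2A and CDKN2B with the loop they share. Among 20 coregulators and chromatin genes MED1 had 52 contacts and KMT2D, a histone H3 methyltransferase of enhancers, had 47. Each of 3 other lists had 1 gene. Among 16 housekeeping genes it was B2M, the light chain of class I antigen-presenting molecules, with 27 contacts. Among the 20 genes listed as mucins and cell surface genes it was TNK2 with 99. TNK2 itself encodes a non-receptor tyrosine kinase, so no mucin of that list was at a short loop. Among 20 genes of other tissues it was PECAM1, an adhesion molecule of endothelial cells, with loops of 54 and 49 contacts. Some of these loops lay near the q-value limit of 0.05: CDK2 at 0.0471, KMT2D at 0.04525 and PECAM1 at 0.0474 and 0.0416. The largest q-value among the other loops of listed genes was 0.0398, for B2M. With 0 to 3 genes per list, the shares of 0% to 15% rest on few loops, and the list of other tissues was not empty.

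Most ends of short loops were ends of nothing longer. Of the 1116 bins, 265 (23.7%, 21.3 to 26.4) were also ends of T0 loops of 20 kb or more, 284 (25.4%, 22.9 to 28.1) were ends of T30 loops, 138 were both and 705 (63.2%, 60.3 to 66.0) were neither. The background for T30 was 32.4%, the share of the 9058 bins of longer T0 loops that ended T30 loops, and its interval (31.4 to 33.3) did not meet that of the short-loop bins. The nearest class differed more: among bins of T0 loops of 20 to 45 kb the T30 share was 48.5% (44.6 to 52.3), and at 20 to 25 kb it was 46.7% (39.6 to 53.9). On chromosomes 17, 16 and 12 the short-loop share was likewise lower, with 29.9% against 52.1%, 34.1% against 61.2% and 21.2% against 46.8% for 20 to 45 kb. On chromosome 19 it was 7.61% against 24.4%, on chromosome 20 it was 27.0% against 39.4%, and on chromosome 3 it was 60.7% against 67.9%; these last 3 pairs had overlapping intervals.

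The T30 list, which begins at 20 kb, can list a T0 loop of 20 kb again but not one of 10 kb, and this bears on the comparison directly. With T30 loops of 50 kb or more alone as targets, the shares were 16.1% (14.02 to 18.4) for short-loop bins and 20.3% (14.9 to 26.6) for bins of T0 loops of 20 to 25 kb, and the intervals overlapped. Against T0 loops of 50 kb or more they were 18.3% (16.05 to 20.7) and 19.3% (14.03 to 25.5). Bins of T0 loops of 20 to 45 kb stood at 24.6% (21.4 to 28.0) for T30 and 26.1% (22.8 to 29.5) for T0, above the short-loop bins. Bins of T0 loops of 50 to 95 kb reached 38.8% for T30, but those loops are themselves of the target's length.

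**Figure D5:**
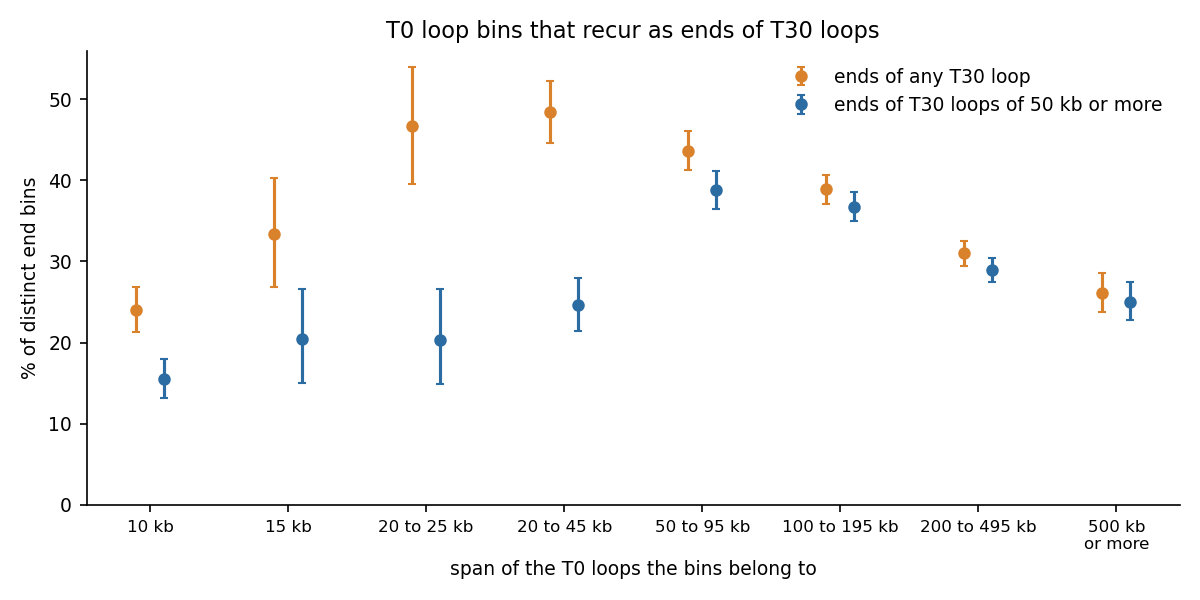
Share of the distinct end bins of T0 loops, by the loops' span class, that are also ends of any T30 loop or of T30 loops of 50 kb or more, with exact 95% intervals. With every T30 loop as target the 10 kb bins stand at 24.0% and those of 20 to 25 kb loops at 46.7%; with T30 loops of 50 kb or more they stand at 15.5% and 20.3%.

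Bins reused in one list were often those reused in the other. Of the 265 short-loop bins that ended a longer T0 loop, 138 (52.1%, 45.9 to 58.2) also ended a T30 loop, against 146 of the other 851 (17.2%, 14.7 to 19.9). Bins with a gene start ended a longer T0 loop in 30.3% (25.1 to 35.8) and bins without one in 21.3% (18.5 to 24.3). For T30 loops the 2 kinds of bin did not stand apart, with 26.0% (21.2 to 31.3) and 25.2% (22.3 to 28.4).

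The shares were higher at the end bins than at the bins beside them. Bins next to the ends on the inside were ends of longer T0 loops in 3.40% (2.17 to 5.06) and bins on the outside in 9.50% (7.86 to 11.3), against the 23.7% of the end bins. For T30 loops the inside bins stood at 9.02%, the outside bins at 16.3% and the end bins at 25.4%. Listed near contacts were merged by the authors, which can remove loops at neighbouring bins, and the part of that step was not tested.

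Counted by loop, 331 short loops had no end at a longer T0 loop, 209 had 1 and 34 had both. Their median contacts were 40, 46 and 50. For T30 loops the counts were 338, 173 and 63, with medians of 40, 45 and 51. Few had a T30 loop in nearly the same place. For 19 short loops (3.31%, 2.00 to 5.12) some T30 loop had each end within 5 kb of theirs, and for 67 (11.7%, 9.16 to 14.6) within 10 kb, against 37.4% and 46.5% of the 99 T0 loops of 20 to 25 kb. A loop of 10 kb can reach 20 kb only if its ends move apart by 10 kb in all, so these shares are not on equal terms.

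Most reused bins had a single partner. Of the 265 bins 157 had 1 longer T0 partner and 11 had 5 or more, and of the 284 bins 185 had 1 T30 partner and 20 had 5 or more. The 4 bins with the most T30 partners lay on chromosome 16. The bin chr16:85415001-85420000 in GSE1 ended 1 short loop of 66 contacts, 20 longer T0 loops and 24 T30 loops, with a median T30 span of 142.5 kb. The bin chr16:85555001-85560000, also in GSE1, had 6 longer T0 partners and 22 at T30, and chr16:85715001-85720000 in C16orf74 had 11 and 13. The bin chr16:89345001-89350000 in ANKRD11, a chromatin regulator, had 1 and 10. By longer T0 partners the bins chr16:85415001-85420000 with 20 and chr16:85715001-85720000 with 11 led. They were followed by 2 bins on chromosome 17 with 8 each, chr17:41660001-41665000 and chr17:76520001-76525000. These 6 bins were chosen after their values were seen.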

How the data were processed

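The report uses the 2 deposited HiChIP loop lists of T47D cells, T0 and T30, with 1 library each. The submitters' processing notes name Bowtie, hg38 and GRCh38 with no role. The loop caller's settings, any pooling of libraries and the way from reads to contacts were not given in the sources used here. Per the file headers and values, the deposited counts of contacts are whole numbers and not normalized. Per the file headers, the authors' bias-corrected model gave the p-value and the q-value. The fraction the authors give for each cluster of contacts entered no result. Other deposited columns hold bin and cluster positions. Every column with sample values was mapped to its sample.

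Span is the distance between bin starts. Genes came from a RefSeq table of GRCh38.p14 (19866 protein-coding genes placed, with entries of alternate loci left out), and starts from 22175 promoter windows of 15842 genes, so starts of other genes are missed. A gene was counted at a loop where it overlapped an end bin. An end was called reused where the identical bin ended another loop. Shares have exact Clopper-Pearson intervals at 95%, and medians have exact intervals from ranks. Read pairs may repeat a molecule.

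Named in the text are the 10 short loops with most contacts, the 5 bins and 10 genes with most short loops, the 5 chromosomes with most short loops and those with none, and the genes of the 10 lists (193 distinct genes) at a short loop. Loops tied in contacts were ordered by q-value, and bins and genes tied in loops by summed contacts. BNIPL, C1orf56 and NR4A1 stayed tied and were put in order of symbol. The short loops, the lists, this rule and the other settings were chosen with earlier results of these data known. Simulated loops with planted values were used to check how gene starts at ends, shared end bins and expected contacts were found. The check of expected contacts drew on the same Poisson model, so it does not test that assumption. The other steps were not checked this way. Tables were made in Python 3.11.15 with pandas 2.3.3, numpy 2.4.6 and scipy 1.17.1, and plots with matplotlib 3.10.9.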

Additional observations from a re-analysis of the deposited data

How the results depend on the processing

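Each of 7 results was recomputed under the other settings, and 22 of 35 values stayed within the main interval or, for the count, within 1.5 times. One setting kept loops with at least 10 contacts. No short loop had fewer than 17, so values of the short loops alone could not change there and are no check. The tally includes them. With a q-value under 0.01 in both lists, 286 short loops were left with a median of 47 contacts, and 15.8% of their bins were ends of longer T0 loops and 20.6% ends of T30 loops. Fewer loops remain as targets in that setting. Allowing a neighbouring bin gave 31.2% and 38.7%, and using the range of the merged cluster gave 26.7% and 29.5%, each from a wider target. Without chromosome 17 the median was 41 contacts, and chromosome 16 then led with 15.2% of the short loops. A gene start lay in or next to an end bin at 63.9% of short loops, against 39.9% of longer T0 loops, and either gene end lay in an end bin at 60.5% against 36.6%, a setting chosen after seeing the data. With genes widened by 10 kb on each side, 80.1% of short loops lay in 1 gene against 13.3% of longer ones. No paired analysis was possible because the 2 HiChIP conditions have 1 library each, and for the same reason no replicate could be left out. The sequencing depth is unknown and limits which loops could be listed, and loops under 20 kb at T30 were not analysed here.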

Other observations

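Pairs of short loops that share a bin also occurred in compact gene clusters away from GSE1. On chromosome 6 the loop from LY6G6F to LY6G6D, 2 genes of a family of surface proteins in the major histocompatibility complex, had 49 contacts, and the loop from LY6G6D to DDAH2 had 51. On chromosome 1 the loop from BNIPL to C1orf56 had 69 contacts and the loop from C1orf56 to CDC42SE1 had 50. In the S100 cluster on the same chromosome 1 short loop with 56 contacts joined the start of S100A14 to the starts of S100A1 and S100A13, genes of calcium-binding proteins. These loops were chosen after their values were seen.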
